A study of Arabidopsis thaliana with 20 samples.

Results

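The response to dexamethasone (DEX) was measured in Arabidopsis thaliana seedlings that carry 35S:VP16-GR, the empty-vector line, which holds the fusion parts of an inducible transcription factor without the factor itself. Of 20 arrays in the series, the 10 arrays labelled as this line were used: 5 from seedlings given DEX with cycloheximide (CHX) and 5 from seedlings given CHX alone. Arrays were paired by the replicate number in their titles, which gave 5 pairs. The other 10 arrays came from the VND7 fusion line, which carries 35S:VND7-VP16-GR, and served for comparison alone.

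All groups were whole seedlings, 10 days old, grown at 23 °C on MS agar in a 16 h light period, and all received CHX, so that no group without CHX exists here. Seedlings of the DEX with CHX group were kept for 2 h in CHX and then for 4 h in CHX and DEX, and those of the CHX alone group for 6 h in CHX. Both lines are homozygous for a single insertion, per their labels, so each is 1 line. The treatment protocol gives both compounds as 10 µM, while the other labels give 10 mM, so the dose is uncertain. No untransformed seedlings given DEX were analysed here, and effects of DEX itself, of the VP16-GR protein and of the insertion site cannot be told apart. Whether replicates are separate cultures is not stated in the labels, so the spread behind the p-values may be technical.

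The system rests on a steroid receptor that plants lack. A protein joined to the steroid-binding part of the glucocorticoid receptor (GR) is held in the cytoplasm by chaperones of the HSP90 machinery until a glucocorticoid such as DEX binds it, and then it can enter the nucleus. VP16 is a strong transcriptional activation domain of viral origin, and 35S is a promoter active in most plant tissues. CHX blocks protein synthesis, so that changes in transcripts do not need newly made proteins. VND7, absent from this line, is a NAC transcription factor that drives the differentiation of xylem vessels. The labels give the purpose of these arrays as finding the genes that DEX induces without new protein synthesis.

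Values are array signals recovered from the deposited log values, and changes are log2 differences of DEX with CHX minus CHX alone, averaged over the 5 pairs and given with their standard error (SE). The arrays of the line had median signals of 163.4 to 184.5, and arrays of 1 group correlated with r of 0.939 to 0.957 (DEX with CHX) and 0.935 to 0.955 (CHX alone) over the probe sets of 2 arrays at a time; probe sets are not replicates. Markers of photosynthetic cells summed to signals of 199773 to 265865 with DEX and CHX and of 183233 to 252367 with CHX alone (29 of 76 listed genes measured). A listed gene counts as measured where a probe set was matched to it by name. Unmeasured genes may still be on the array. Root hair markers were dim, with summed signals of 40.3 to 150.7 with DEX and CHX and 91.5 to 158.5 with CHX alone (2 of 40 measured). Of the list for guard cells 3 genes were measured, of that for xylem vessels 8 and of that for phloem 1, so the seedlings' other cell types were marked only in part. In whole seedlings, more or fewer cells of a type and more or less RNA per cell cannot be told apart.

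Few probe sets passed the test for a response to DEX, and nearly all that passed were higher. Of 22746 probe sets 134 rose (0.589%) and 8 fell (0.0352%), together 0.624%, at a Benjamini-Hochberg adjusted p under 0.05 in limma with the replicate number as a block. The rises had a median of 1.28 on the log2 scale (quartiles 0.799 and 1.86), and 85 of them reached 2-fold. The falls had a median of -0.555 (quartiles -0.638 and -0.539), and 0 reached 2-fold. Of the risen probe sets 71 had a single matched gene, 3 had several and 60 were not in the gene table, and of the fallen ones 6 were named. The count depended on the model: without the block 58 rose and 0 fell (541 up and 258 down at unadjusted p under 0.05, against 1059 and 907 with it), and without a trend of variance on signal 12 rose and 0 fell (959 and 731 at unadjusted p under 0.05). Without replicate 4 the counts were 77 and 2, and without replicate 5 they were 75 and 1. Of 39 named genes that passed, only 6 kept their call without the variance trend. Most calls given below were thus lost in that setting, also where no other limit is given. Examples are GH3.17 (limma adjusted p = 0.0893), AT1G28160 (0.183) and AT1G15640 (0.311).

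Pairs that all moved one way were about as frequent upwards as downwards. All 5 pairs were higher with DEX for 1073 probe sets (4.72%) and lower for 1006 (4.42%), and among the 11616 probe sets above the array median these numbers were 610 and 654. A change of at least 2-fold in addition was met by 58 of the 610, against 0 of the 654. Nearly all of the 58 are among the called rises: outside the called probe sets, 504 above the median were higher in all pairs and 646 lower, of which 1 and 0 reached 2-fold. Every one of the 134 rises had 5 positive pairs of 5, a sign that choosing them on the same arrays favours. For 93 of the 134 the lowest signal with DEX lay above the highest with CHX alone, against 0.734% of all probe sets, and for 0 of the 8 falls were the groups apart, against 0.198%. These shares come from the same contrast as the calls and are given as description.

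**Figure D1:**
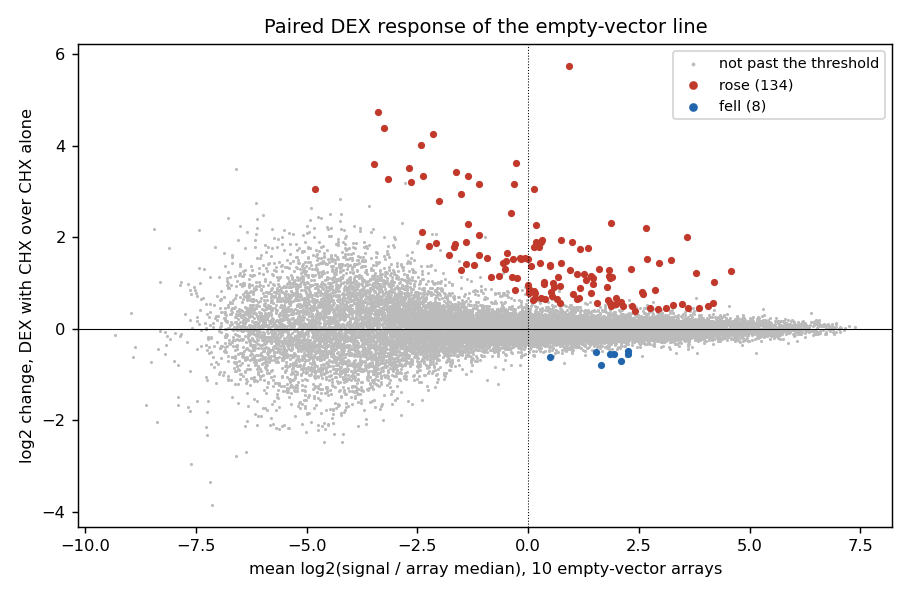
Log2 change (DEX with CHX minus CHX alone, vertical) against mean log2 signal over the array median (horizontal) for all 22746 probe sets of the empty-vector line. Each point is a probe set, with the 134 that rose and the 8 that fell in colour: the rises span dim to bright probe sets, and the falls lie above the array median at changes of under 2-fold.

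The change was not of one size in all replicates. The labels name no batches, but signals of replicates 2 and 3 deviated together, as did those of replicates 4 and 5. The median change of the 134 rises was 1.03 for replicate 1, 1.13 for the pairs of replicates 2 and 3, and 1.49 for those of replicates 4 and 5, while the median over all probe sets was 0.026, -0.015 and -0.014. In 107 of the 134 the mean change of replicates 4 and 5 was larger in size than the change of replicate 1. That share was not counted over all probe sets. For the 8 falls the medians were -0.435, -0.592 and -0.644. The part of these replicate sets in this was not tested. The main fit treats the 5 pairs as independent, so its p-values do not account for changes shared within a set.

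Genes of wall-bound and extracellular peroxidases, which use hydrogen peroxide to cross-link or loosen wall polymers, were among the brightest rises. The families given here for genes listed by locus number alone are background knowledge and not part of the files. AT3G01190, a class III peroxidase, had signals of 3479, 3351, 3421, 5869 and 5924 with DEX and CHX in replicates 1 to 5, against 867.3, 711.8, 1083, 1407 and 1353 with CHX alone. Every DEX array lay above every CHX array, and the 2 highest of each group were replicates 4 and 5. The rise was 4.04-fold (log2 change 2.02 ± 0.090, SE; limma adjusted p = 6.60e-07).

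Other class III peroxidases rose as well, and these were picked out after their values were seen. The measured members of the family that are listed by locus number were not counted. AT5G64100 had signals of 8441, 4878, 4655, 6728 and 8780 with DEX and CHX, against 3462, 2125, 2472, 2718 and 2885 with CHX alone, so that the groups were apart. Its mean with DEX, 6696, was the highest of all 134 risen probe sets (log2 change 1.26 ± 0.10; limma adjusted p = 8.17e-05). AT5G17820 averaged 2332 ± 838 with DEX and CHX and 852 ± 246 with CHX alone (SD, n = 5 each; log2 change 1.43 ± 0.088; limma adjusted p = 8.22e-06). The smallest of these changes was that of AT4G30170, whose groups overlapped: it averaged 1006 ± 464 with DEX and CHX and 650 ± 238 with CHX alone (log2 change 0.59 ± 0.096; limma adjusted p = 0.0152). That call was lost without replicate 1, 3, 4 or 5 (0.0577 to 0.0836) and without the block. The list of class III peroxidases matched by symbol, which holds none of these loci, had 7 measured members, of which 0 passed in limma (0 also at unadjusted p under 0.05), with a median log2 change of 0.0067. AT4G25090, of the respiratory burst NADPH oxidases that make superoxide outside the cell, averaged 347 ± 110 with DEX and CHX and 197 ± 58.9 with CHX alone (log2 change 0.81 ± 0.11; limma adjusted p = 0.00361; chosen after its value was seen). Its groups overlapped, and its call was lost without the block (0.804).

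**Figure D2:**
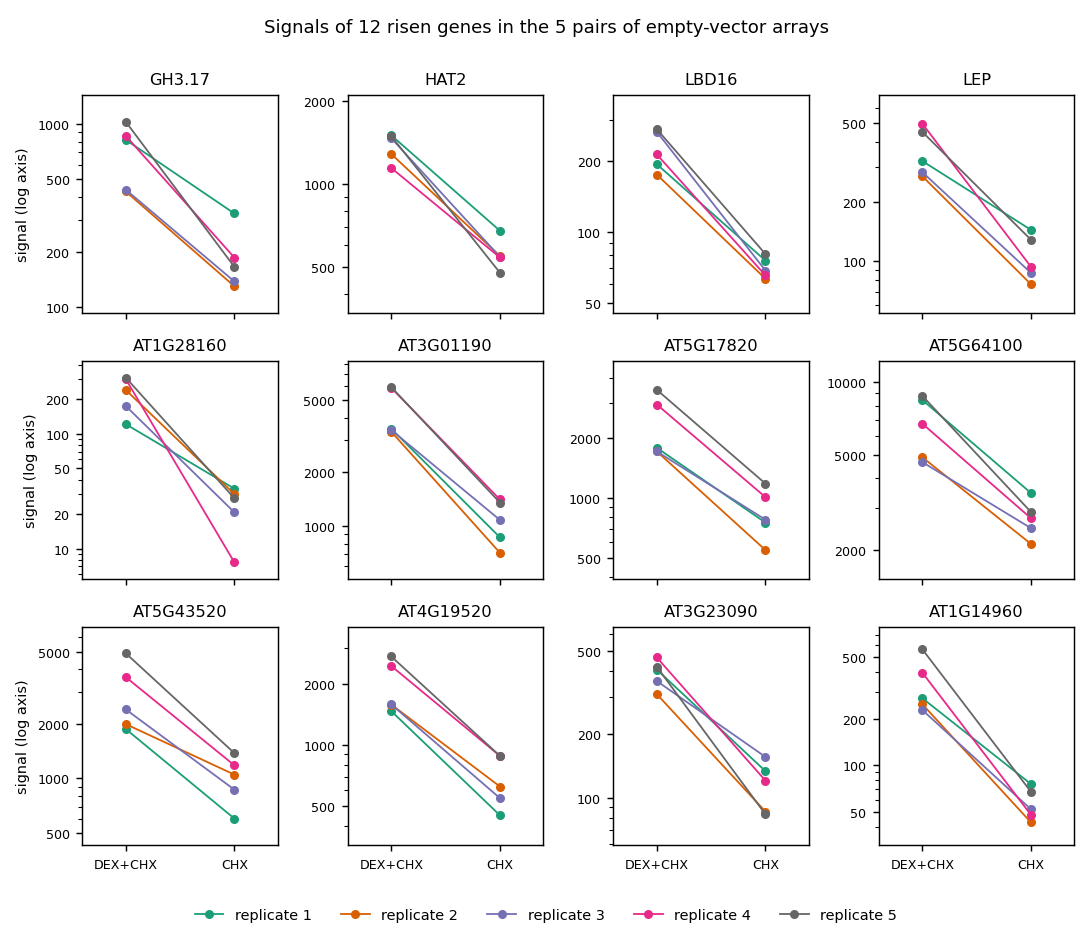
Array signals of 12 risen genes in the empty-vector line, DEX with CHX at the left and CHX alone at the right of each panel, on a log axis. Each line joins the arrays with the same replicate number: all lines slope the same way, with every DEX array above its CHX partner.

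Genes of the early auxin list gave 3 of the rises. Auxin is the hormone that starts lateral roots and patterns growth. The list, matched by symbol, holds GH3 enzymes, HD-ZIP II factors and LBD factors, and a place in it does not show that auxin induces the gene. GH3.17, which conjugates auxin to an amino acid and so lowers its free level, had signals of 818.4, 428.2, 438, 860.4 and 1027 with DEX and CHX, against 324.7, 130.3, 138.5, 186.8 and 166.3 with CHX alone. The groups were apart, and replicate 1 was the highest CHX array (3.75-fold; log2 change 1.91 ± 0.16; limma adjusted p = 0.000104). HAT2, an auxin-induced HD-ZIP factor, had signals of 1500, 1284, 1465, 1143 and 1489 with DEX and CHX, against 678.1, 549.7, 545.6, 542.8 and 478.3 with CHX alone. Its groups were far apart, and its log2 change was 1.22 for replicate 1, 1.29 for replicates 2 and 3, and 1.35 for replicates 4 and 5 (mean 1.30 ± 0.091; limma adjusted p = 2.88e-05). LBD16, a factor of lateral root initiation, had signals of 194.3, 175.5, 266.7, 213.8 and 273.7 with DEX and CHX, against 75.6, 63.3, 68.6, 65.4 and 80.6 with CHX alone. These groups did not overlap either (3.14-fold; log2 change 1.65 ± 0.16; limma adjusted p = 0.000267).

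These 3 were the risen members of the early auxin list, of which 15 of 125 genes were measured and 0 fell. At unadjusted p under 0.05 in limma 3 were higher and 2 lower. GH3.3, a bright gene of the GH3 family, had a log2 change of -0.011 (limma adjusted p = 0.983). The list's median log2 change was 0.143, and 8 of the 15 were positive, against a median of -0.0055 over 13286 genes, of which 71 rose and 6 fell. LBD29, a relative of LBD16 with the same role, had signals of 52.8 to 129.8 with DEX and CHX and 55.1 to 129.5 with CHX alone and did not pass (log2 change 0.17 ± 0.24; limma adjusted p = 0.894). PUCHI, an AP2/ERF factor of lateral root primordia, averaged 42.1 ± 12.6 with DEX and CHX and 42.1 ± 21.1 with CHX alone (log2 change 0.061 ± 0.29; limma adjusted p = 0.969). The list of endodermis and lateral root primordium markers came down to LBD16, LBD29 and PUCHI, with no endodermis gene. Their summed signal was 302.3 to 431.6 with DEX and CHX and 164.4 to 226.9 with CHX alone. Of these only LBD16 rose (mean 225 with DEX and CHX, 70.7 with CHX alone), so the sum largely repeats its rise. The part of lateral root primordia in the auxin genes' rise was not tested. Of the genes of auxin transport 0 were matched by name to a probe set.

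Transcription factors of the AP2/ERF class, which bind short promoter elements and act in ethylene, stress and organ growth, also held 2 of the larger rises. AT1G28160 had signals of 121.5, 241.4, 175.1, 300.3 and 309.2 with DEX and CHX, against 33.3, 29.9, 20.7, 7.6 and 27.5 with CHX alone. Each DEX array was several times above every CHX array (10.2-fold; log2 change 3.35 ± 0.38; limma adjusted p = 0.00119). With a pseudocount of 53.4, the 30th percentile of signals, its log2 change was 1.83, so the size depends on how dim signals are treated. LEP, a factor of leaf and petiole growth, averaged 364 ± 104 with DEX and CHX and 106 ± 28.8 with CHX alone, with the groups apart (log2 change 1.78 ± 0.16; limma adjusted p = 0.000177). The AP2/ERF list, in which neither locus is held, had 6 of 76 genes measured, and 0 passed in limma (0 also at unadjusted p under 0.05), with a median of -0.053.

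Other named rises of over 3-fold came from unrelated families. AT3G27950, of the GDSL lipase family of secreted esterases, averaged 879 ± 356 with DEX and CHX and 243 ± 25.6 with CHX alone (log2 change 1.76 ± 0.16; limma adjusted p = 0.000200). AT5G57070, of the hydroxyproline-rich proteins, averaged 426 ± 211 with DEX and CHX and 104 ± 18.5 with CHX alone (log2 change 1.90 ± 0.21; limma adjusted p = 0.000799). AT3G23090, whose listed synonym is WDL3 and whose family binds microtubules, averaged 391 ± 58.8 with DEX and CHX and 116 ± 31.3 with CHX alone (log2 change 1.78 ± 0.16; limma adjusted p = 0.000154). All 3 had groups that did not overlap. TBL38, of the family that acetylates wall polysaccharides, rose less, by 2.15-fold. It was the 1 gene that passed of 62 measured wall loosening and pectin genes in a list matched by symbol. Its signals were 918.9, 982.8, 1021, 843.8 and 879.3 with DEX and CHX, against 741, 520.8, 442.1, 299.9 and 285.9 with CHX alone. The DEX arrays were alike and the CHX arrays spread widely, so that its log2 change was 0.38 for replicate 1, 1.02 for replicates 2 and 3, and 1.55 for replicates 4 and 5 (mean 1.11 ± 0.15; limma adjusted p = 0.00403; 0.150 without the block). The median of that list was 0.0025.

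Of the other genes with large rises above the array median, AT1G35330 is a RING finger protein of the kind that attaches ubiquitin to other proteins. It had signals of 315, 518.8, 484.9, 818.3 and 965.5 with DEX and CHX, against 107.5, 126, 125, 178 and 249 with CHX alone. The groups were apart, and replicate 1 was lowest in both (3.83-fold; log2 change 1.94 ± 0.11; limma adjusted p = 4.91e-06). AT1G14960, of the family of major latex proteins and the birch pollen allergen, averaged 342 ± 141 with DEX and CHX and 57.1 ± 13.9 with CHX alone (5.77-fold; log2 change 2.53 ± 0.20; limma adjusted p = 7.39e-05). AT1G15640, to which no role is given here, averaged 776 ± 358 with DEX and CHX and 224 ± 68.0 with CHX alone, and its log2 change was 0.77 for replicate 1, 1.60 for replicates 2 and 3, and 2.35 for replicates 4 and 5 (mean 1.73 ± 0.23; limma adjusted p = 0.00398).

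Further genes were picked out after their values were seen, and the measured members of their families were not counted. Some have C1 domains, zinc-binding folds of a plant family with little known function. AT5G43520 averaged 2962 ± 1290 with DEX and CHX and 1016 ± 298 with CHX alone (log2 change 1.49 ± 0.12; limma adjusted p = 7.39e-05), and AT5G40590 averaged 4704 ± 1305 with DEX and CHX and 2300 ± 498 with CHX alone (1.01 ± 0.14; 0.00444). AT4G01910, AT2G42060 and AT2G44380 had log2 changes of 1.48 ± 0.16, 1.13 ± 0.14 and 0.99 ± 0.085, and of these 5 genes only AT2G44380 had groups that overlapped. Without the block AT5G43520, AT5G40590, AT2G42060 and AT2G44380 lost their calls (limma adjusted p = 0.069 to 1). AT4G19520, of the intracellular receptors of disease resistance, had signals of 1471, 1584, 1587, 2452 and 2730 with DEX and CHX, against 452.1, 626.3, 549.2, 886.2 and 885.8 with CHX alone, with all DEX arrays above all CHX arrays (log2 change 1.53 ± 0.082; limma adjusted p = 3.62e-06). The protein phosphatase 2C genes AT3G05640 and AT5G27930, listed with the synonyms EGR1 and EGR2, averaged 168 ± 39.3 and 349 ± 31.8 with DEX and CHX, against 41.9 ± 17.0 and 237 ± 18.7 with CHX alone. Their log2 changes were 2.04 ± 0.24 and 0.55 ± 0.10 (limma adjusted p = 0.00159 and 0.0344), and the call of AT5G27930 was lost without any 1 replicate (0.0713 to 0.177). AT5G10960, of the CAF1 deadenylases that shorten the poly(A) tails of messenger RNA, averaged 3861 ± 319 with DEX and CHX and 2630 ± 393 with CHX alone (log2 change 0.56 ± 0.083; limma adjusted p = 0.00770; 0.0531 without replicate 4, 0.0567 without replicate 5 and 0.086 without the block).

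Several of the largest log2 changes started from signals near the floor of the scale, where a ratio has no settled size. AT5G43000 had signals of 69, 53.6, 94, 108 and 121 with DEX and CHX, against 3.7, 3.7, 3.1, 2.5 and 3.2 with CHX alone. AT3G08490 had 64, 102.7, 184.1, 333.5 and 388 with DEX and CHX, against 26.2, 5, 5.4, 13 and 6.4 with CHX alone. All DEX arrays of both genes lay above all CHX arrays. Their log2 changes were 4.73 ± 0.43 and 4.27 ± 0.53 (limma adjusted p = 0.000177 and 0.00210), or 1.31 and 1.88 with the pseudocount.

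AT4G31470, of the CAP family of secreted proteins related to PR-1 of pathogen defence, was at this low level too. It had signals of 57.1, 155.7, 133, 198.7 and 165.5 with DEX and CHX, against 8, 3.4, 43.5, 7.9 and 3.8 with CHX alone (log2 change 4.01 ± 0.54; limma adjusted p = 0.00389; 1.53 with the pseudocount). AT4G33730, of the same family and chosen after its values were seen, had signals of 41.3 to 112.4 with DEX and CHX and of 5.4 to 44.9 with CHX alone, which overlapped (log2 change 2.12 ± 0.41; limma adjusted p = 0.0429; 0.76 with the pseudocount). It lost its call without the block (0.37) and without replicate 2, 3, 4 or 5 (0.136 to 0.197). AT3G57950 averaged 93.8 ± 19.1 with DEX and CHX and 16.1 ± 18.1 with CHX alone (log2 change 3.52 ± 0.59; limma adjusted p = 0.0190; 1.11 with the pseudocount), with a call that was lost without the block (0.185) and without replicate 3, 4 or 5 (0.0525 to 0.106).

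The largest rise of all belonged to a probe set that the gene table does not list, 255591_at. Its signals were 2133, 1964, 2210, 2684 and 3519 with DEX and CHX, against 78.6, 32.5, 54.9, 35 and 39.8 with CHX alone. Every DEX array lay far above every CHX array (53.6-fold; log2 change 5.75 ± 0.20; limma adjusted p = 1.13e-07). With 60 of 134 rises unlisted, the gene groups above describe only part of the response.

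The 6 named genes that fell were each lower with DEX in 5 of 5 pairs, by less than 2-fold and with overlapping groups. AT1G33811, of the GDSL lipase family, had signals of 544.3, 868.1, 587.3, 470.8 and 544.1 with DEX and CHX, against 730.3, 1225, 1228, 862.5 and 858.5 with CHX alone. Replicate 2 was the highest DEX array and lay above 3 of the CHX arrays (1.63-fold lower; log2 change -0.71 ± 0.11; limma adjusted p = 0.00825). AT2G29995 had signals of 584, 714.8, 838.4, 656 and 663.6 with DEX and CHX, against 802.4, 1163, 1284, 856.2 and 973.2 with CHX alone. Only the highest DEX array, replicate 3, exceeded the lowest CHX array, replicate 1 (log2 change -0.55 ± 0.081; limma adjusted p = 0.00806).

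The largest of the falls was that of AT2G39960, a subunit of the signal peptidase that trims secreted proteins, with signals of 422.6, 778.9, 554.6, 196.2 and 355.3 with DEX and CHX, against 735.3, 924.3, 962.4, 539.8 and 538.8 with CHX alone (log2 change -0.78 ± 0.14; limma adjusted p = 0.0268). AT5G26010, a protein phosphatase 2C, averaged 217 ± 100 with DEX and CHX and 334 ± 158 with CHX alone (log2 change -0.61 ± 0.11; limma adjusted p = 0.0344). AT2G33850 averaged 577 ± 215 with DEX and CHX and 850 ± 296 with CHX alone (-0.56 ± 0.10; 0.0287). AT3G04760, of the pentatricopeptide repeat proteins that bind organelle RNA, averaged 713 ± 87.5 with DEX and CHX and 1007 ± 215 with CHX alone (-0.48 ± 0.091; 0.0411). Without the block all 6 calls were lost (limma adjusted p = 0.635 to 1). Leaving out replicates cost AT5G26010 its call in every case (0.0536 to 0.233), AT2G33850 without replicate 2, 3, 4 or 5 (0.0780 to 0.150), AT3G04760 without replicate 1, 2, 4 or 5 (0.145 to 0.217) and AT2G39960 without replicate 1, 3 or 5 (0.0843 to 0.0932). AT1G33811 lost it without replicate 4 (0.0531) and AT2G29995 without replicate 5 (0.0551).

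**Figure D3:**
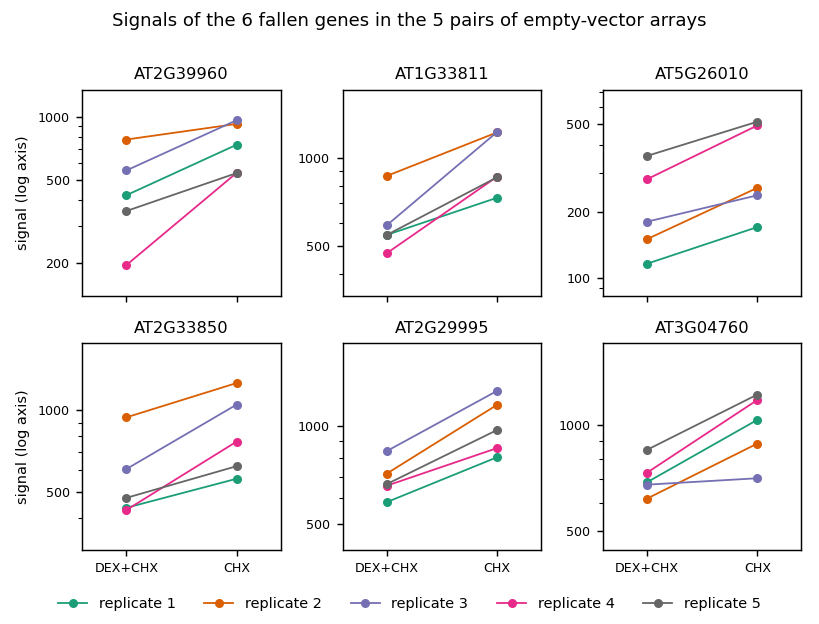
Array signals of the 6 named genes that fell in the empty-vector line, DEX with CHX at the left and CHX alone at the right of each panel, on a log axis. Lines join same-numbered arrays: each line runs lower with DEX, while the 2 groups of points overlap in every panel.

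Most gene lists chosen for this treatment held no called member. HSP90 and its co-chaperones are known to hold the receptor domain. Of 10 measured heat shock and chaperone genes (78 listed) 0 passed in limma (0 also at unadjusted p under 0.05), with a median log2 change of -0.027. The FKBP-type co-chaperone AT5G48570 had signals of 185.7 to 765 with DEX and CHX and 160 to 729.3 with CHX alone (0.25 ± 0.16; limma adjusted p = 0.712), and Hop2, a bridge between HSP70 and HSP90, averaged 1106 ± 343 with DEX and CHX and 1197 ± 271 with CHX alone (-0.14 ± 0.091; 0.726). Of 4 measured nuclear import and export genes (28 listed) 0 passed (1 higher at unadjusted p under 0.05), and NUP1, a nucleoporin, had a log2 change of 0.24 ± 0.096 (0.489).

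Detoxification genes respond to many foreign compounds. In the lists of them, which were matched by symbol, 1 gene passed, the tau-class glutathione transferase GSTU27. It had signals of 505.6, 717.5, 681.4, 587.9 and 593.6 with DEX and CHX, against 306.2, 390.1, 481.5, 310 and 313 with CHX alone. Its groups did not overlap (log2 change 0.79 ± 0.094; limma adjusted p = 0.00159; 0.192 without the block). The other 11 measured glutathione transferases did not pass, and the list's median was 0.011. Of 51 UDP-glycosyltransferases named by symbol 0 passed, with 6 higher and 1 lower at unadjusted p under 0.05 and a median of 0.064. GT72B1, which glucosylates phenolic compounds, was nearest among the higher ones (1125 ± 123 with DEX and CHX, 808 ± 120 with CHX alone; 0.48 ± 0.12; 0.137). UGT76B1, which glucosylates isoleucic acid and salicylic acid, averaged 198 ± 148 with DEX and CHX and 280 ± 191 with CHX alone (-0.57 ± 0.13; 0.111). AT3G46700, of the UDP-glycosyltransferase family but listed by locus number and so outside that list, was picked out after its values were seen. It had signals of 348.2, 310.7, 305.4, 437.6 and 444 with DEX and CHX, against 170.3, 139, 194.6, 198.9 and 222.5 with CHX alone, with the groups apart (log2 change 0.99 ± 0.12; limma adjusted p = 0.00137). Of 22 measured cytochromes P450 named by symbol (240 listed) 0 passed (0 also at unadjusted p under 0.05), at a median of 0.055.

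Stress, sugar and organelle lists also held no called gene. Only a part of each list was measured, so unmeasured members may have changed. Of 14 stress and touch genes induced fast (58 listed) 0 passed (median 0.026), and of 11 pathogenesis-related and defensin genes (38 listed) 0 (median 0.016). Of 7 WRKY factors (71 listed) 0 passed (median 0.053), and of 12 abscisic acid and drought genes (90 listed) 0 (median -0.035). WRKY53, an early defence factor, had a log2 change of 0.24 ± 0.094 (limma adjusted p = 0.488). Among 21 sugar and starch genes (115 listed) 0 passed, and the vacuolar sugar transporters SWEET17 and SWEET16 had opposite signs in 5 of 5 pairs. SWEET17 averaged 694 ± 333 with DEX and CHX and 522 ± 234 with CHX alone (0.39 ± 0.089; 0.111). SWEET16 averaged 350 ± 106 with DEX and CHX and 476 ± 214 with CHX alone (-0.39 ± 0.10; 0.175). The ribosomal protein list came down to 16 measured genes, 15 of them encoded in the chloroplast, so it does not describe cytosolic ribosomes. Of the 16, 15 were positive, at a median of 0.141, against 48.9% of all genes, and 0 passed. One of them, rpl32, averaged 4792 ± 374 with DEX and CHX and 4149 ± 463 with CHX alone (0.21 ± 0.093; 0.556). Photosynthetic genes (29 of 76 measured, median 0.042) and xylem and secondary wall genes (8 of 99 measured, median 0.022) had 0 calls each. The same held for cell cycle and histone genes (10 of 111 measured, median -0.091) and reference genes (11 of 48 measured, median 0.021). At unadjusted p under 0.05 these lists held few genes in limma: 3 higher among the ribosomal genes, 3 lower and 1 higher among the sugar genes, 2 lower among the cell cycle genes, and at most 1 in each direction in the others. Of the genes of brassinosteroid and sterol synthesis and of the listed resistance-type receptors 0 were matched by name to a probe set.

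**Figure D4:**
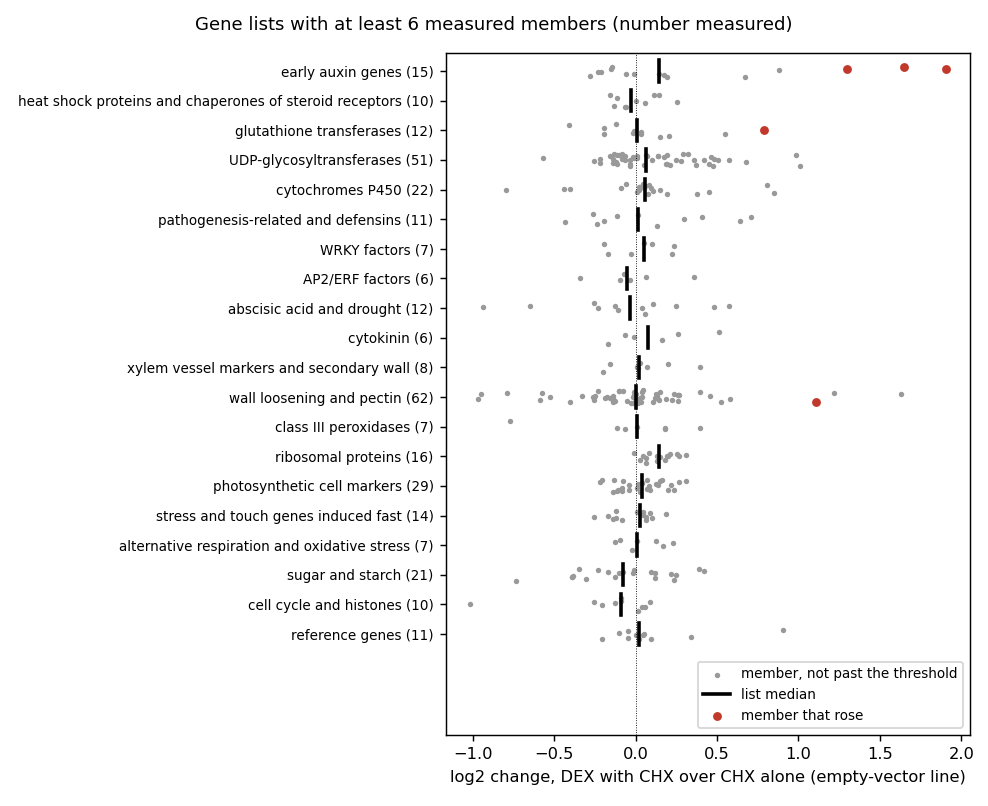
Log2 change (DEX with CHX minus CHX alone) of each measured gene in the lists with at least 6 measured members, with the number measured in brackets. Grey points did not pass, red points rose and black bars are list medians: the list medians lie between -0.091 and 0.143, and the red points are the 3 auxin genes, GSTU27 and TBL38.

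The 134 rises were set beside the same contrast in the VND7 fusion line, which shares replicate numbers but no arrays with this line. There their median log2 change was -0.07, 47 of 134 were positive, 2 rose and 2 fell, where 0.928% of all probe sets rose and 0.11% fell in that line. The difference of the responses, empty-vector minus VND7 fusion line, was passed upwards by 90 of the 134 and downwards by 0, against 0.519% and 0.532% of all probe sets, together 1.05%. The choice of the 134 on these arrays favours the upward direction.

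AT3G01190 rose by 2.02 in the empty-vector line and had a log2 change of -0.21 in the VND7 fusion line (difference 2.22 ± 0.13; limma adjusted p = 9.87e-09). The auxin genes GH3.17, HAT2 and LBD16 had differences of 2.00 ± 0.23, 1.53 ± 0.14 and 1.53 ± 0.29 (2.48e-05, 2.47e-06 and 0.00684), with changes of -0.090, -0.23 and 0.12 in the VND7 fusion line. AT5G64100 even went the other way, at 1.26 in the empty-vector line and -0.49 in the VND7 fusion line, where it fell (adjusted p = 0.0240; difference 1.75 ± 0.15; 1.04e-06). The unlisted probe set 255591_at had a log2 change of -0.86 there (difference 6.61 ± 0.69; 8.42e-06). AT3G08490, with 1.03 in the VND7 fusion line, did not pass the difference (3.23 ± 0.90; 0.133), nor did AT4G30170 (0.0513), AT5G40590 (0.0588) or AT4G33730 (0.883).

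None of the falls passed the test of the difference between the lines. In the VND7 fusion line the 8 had a median log2 change of -0.34, 6 were negative and 2 fell, and 0 of 8 passed the difference in limma in either direction, which does not show that the lines fell alike. AT1G33811 fell in each line, at -0.71 in the empty-vector line and -0.65 in the VND7 fusion line on the log2 scale (limma adjusted p = 0.00749; difference -0.061 ± 0.18; 0.976). AT5G26010 did so too, with -0.61 in the empty-vector line and -0.49 in the VND7 fusion line (0.0440; difference -0.12 ± 0.16; 0.941). AT3G04760 had -0.48 in the empty-vector line and 0.041 in the VND7 fusion line, a difference that did not pass (-0.52 ± 0.13; 0.0640).

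**Figure D5:**
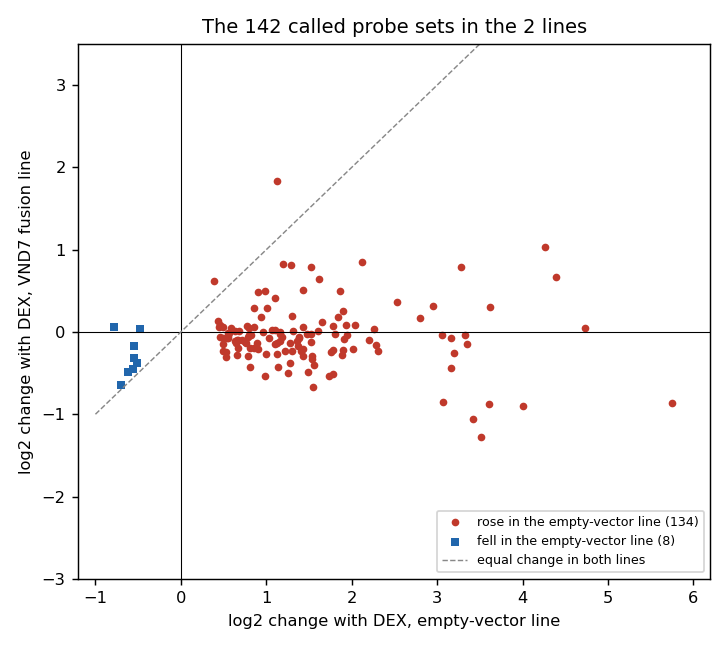
Log2 change with DEX in the empty-vector line (horizontal) and in the VND7 fusion line (vertical) for the probe sets that rose or fell in the empty-vector line. Each point is a probe set and the dashed line marks equal change: the rises spread around 0 on the vertical axis (median -0.07), while the 8 falls have a median of -0.34 there.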

How the data were processed

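Per the submitters' processing notes, the array signals come from MAS5 (version not given in the sources used here). The authors deposited the values as natural logs of each signal over its array's median, a unit worked out here from the values: after exponentiation 100% of the values checked per array were whole multiples of one step. The values were turned into log2, and all 22746 probe sets entered the linear models of limma 3.58.1 (R 4.3.3; lmFit, then eBayes with trend). The main fit used the 10 arrays of the empty-vector line with replicate number as a block. The difference between lines and the changes of the VND7 fusion line used all 20 arrays with that block. The threshold was a Benjamini-Hochberg adjusted p under 0.05, and all adjusted p-values are limma's.

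The numbers were taken to pair the arrays, since deviations from group means correlated for all 5 same-numbered pairs (r = 0.648 to 0.769, across 11370 probe sets above the array median; replicates 2 with 3 and 4 with 5 0.572 to 0.776, other numbers -0.699 to -0.083). Of the DEX arrays 3 of 5 correlated best with their own number and the others with the number they are set beside here (2 with 3, 4 with 5), so these values do not separate single numbers from those sets. With 5 pairs, 4 residual degrees of freedom remained for each probe set. The number of arrays limits the precision, and detection calls were not used here.

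Genes were named through the platform's table and RefSeq (TAIR10.1, names and gene order alone): 13436 probe sets (59.1%, 13286 genes) matched 1 gene, 503 several and 77 a gene without a match, and 8730 were not listed. Named genes were the 10 largest rises and falls above the array median with 5 of 5 pairs alike, the 4 largest of the rest, and up to 3 members of each list with the smallest adjusted p; others are said to be chosen after their values were seen. The members and lists were chosen with earlier results of these data known. Lists were matched by symbol, so that a family member listed by locus number is in none. The fit was tested on simulated data with 50 probe sets changed by each amount. It called 25 of 50 at a log2 change of 1, 36 at 2, 25 at -1 and 33 at -2, with 1 false call. Probe sets that did not pass may therefore have changed. The simulated noise was drawn independently for each array. The 1 false call thus does not cover changes shared within replicates 2 and 3 or 4 and 5. A planned search of promoter letters was not run, for want of sequences here.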

Additional observations from a re-analysis of the deposited data

Results flagged for a closer look

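The responses of the lines to DEX differed for 29 named genes, by the limma test of the difference over 20 arrays (adjusted p under 0.05), each higher in the empty-vector line. These genes were named for having risen in that line, which fixes the direction: over all probe sets 118 differed upwards and 121 downwards. Values below are differences of log2 changes, empty-vector minus VND7 fusion line. Among the peroxidases the difference was 2.22 for AT3G01190, 1.64 for AT5G17820 and 1.75 for AT5G64100, and for the NADPH oxidase gene AT4G25090 it was 1.24. The auxin genes GH3.17, HAT2 and LBD16 differed by 1.99, 1.53 and 1.53. The AP2/ERF genes AT1G28160 and LEP differed by 3.49 and 2.00. For the C1-domain genes the differences were 1.98 (AT5G43520), 1.52 (AT2G44380), 1.50 (AT4G01910) and 1.56 (AT2G42060). AT3G27950, AT5G57070, AT3G23090 and TBL38 differed by 2.01, 1.65, 2.30 and 1.25. The values were 1.86 for AT1G35330 and AT4G19520 alike, 1.96 for AT3G05640, 0.60 for AT5G27930, 0.57 for AT5G10960, 1.08 for GSTU27 and 1.25 for AT3G46700. AT1G14960 differed by 2.17 and AT1G15640 by 2.27. From bases near the floor, AT5G43000, AT4G31470 and AT3G57950 had differences of 4.69, 4.91 and 4.79, whose sizes are not settled.

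Single arrays stood apart from the other 4 of their group in 9 of 136 groups checked by Dixon's ratio, at the highest or the lowest array. How often chance alone flags a group was not counted here, so 9 is not read as many. Replicate 1 accounted for 6 of the 9. With DEX and CHX these were the signals of AT2G31110 (503.3) and SWEET17 (1282), both the highest. With CHX alone they were SWEET17 (941) and PUCHI (79.5), both the highest, and UGT73D1 (124.8) and SPCH (51), both the lowest. The others were EXPA7 in DEX replicate 5, listed at 3, AT4G01910 in DEX replicate 5 at 346.3, and AT1G28160 in CHX replicate 4 at 7.6.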

How the results depend on the processing

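Counts are given as rises and falls, against 134 and 8. They were 58 and 0 without the replicate block, 12 and 0 without the variance trend, 119 and 3 with the replicate number as a random block, 129 and 3 with the pseudocount, and 129 and 16 without the dimmest 40% of probe sets. Leaving out 1 replicate gave 75 to 108 rises and 1 to 8 falls, lowest without replicate 5. Of 39 named genes that passed, 21 kept their call without the block, 6 without the trend and 29 to 34 without 1 replicate. Chosen after seeing the data, the pseudocount without the block gave 60 and 0, and leaving out the dimmest probe sets with all 20 arrays gave 24 falls. The other 5 planned settings (not dividing by the median, quantile normalization, a block of 3 replicate sets, all 20 arrays, and robust variances) stayed within 1.5 times of both counts. The difference between lines was passed by 118 probe sets upwards and 121 downwards, by 38 and 51 without the block, and by 61 to 83 and 75 to 108 without 1 replicate, with over 1.5 times fewer upwards without replicate 3 or 4 and downwards without replicate 2 or 3. Among the 68 genes checked, the sign of 3 that never passed turned: without 1 replicate the log2 change ranged over -0.0065 to 0.345 for LBD29, -0.196 to 0.152 for SPCH and -0.105 to 0.184 for PUCHI. The cause of these shifts was not tested, apart from the fewer arrays or probe sets that some settings leave. With dim signals a ratio depends on the pseudocount, as for AT5G43000 (4.73, or 1.31 with it).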

Other observations

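Neighbouring genes were looked at because each line carries a single insertion. Of the 71 named genes that rose, all were placed in the RefSeq gene order, and 62 measured genes lay directly beside one of them. Of these neighbours 0 rose in limma (7 higher and 4 lower at unadjusted p under 0.05), and their median log2 change was 0.018. Over all 13286 genes 71 rose (607 higher and 494 lower at unadjusted p under 0.05). With so small a share of rises, 0 of 62 neighbours cannot be told apart from it. At unadjusted p under 0.05 in limma both shares of the 62 neighbours, 7 higher and 4 lower, lay above those of all genes. That difference was not tested. The check describes the measured neighbours alone, since many genes have no named probe set. The 60 risen probe sets that are not in the gene table could not be placed.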
